A study of Mus musculus with 19 samples.

Results

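Axillary lymph nodes of mice immunized with cardiac myosin were compared with axillary nodes of mice given the adjuvant alone. The members were the 2 libraries labelled as myosin immunization and the 4 labelled as adjuvant, 6 of the 19 libraries of the series, and they were taken by their labels. Myosin mice had received 100 µg of porcine cardiac myosin under the skin, in an emulsion with 200 or 600 µl of an oil-based adjuvant, Titermax Gold. Adjuvant mice had received 200 µl of the same adjuvant without antigen. The labels do not say which volume each myosin library had, so antigen and adjuvant volume cannot be told apart. All animals were BALB/c mice kept under specific pathogen-free conditions, and nodes were taken 7 days after the injection. The labels give neither the age of the animals nor whether a library came from 1 animal or several, so the p-values measure only the spread between these samples, which may be technical. From each node 500000 CD4+ TCRβ+ T cells were sorted by flow cytometry, and the T cell receptor β chain (TCRβ) transcripts of their RNA were amplified and sequenced. The rest of the series holds 3 axillary nodes after immunization with mouse heart extract, 3 libraries of mediastinal nodes after infarction and 4 after a sham operation, and 3 libraries of infarcted hearts.

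A TCRβ chain is assembled in each developing T cell from a variable (TRBV), a diversity and a joining (TRBJ) segment. The junction encodes the third complementarity-determining region (CDR3), the loop that makes most of the contact with the antigenic peptide. Naive CD4+ T cells circulate through lymph nodes, and a cell whose receptor recognises a peptide presented there can divide into a clone whose members carry one CDR3. Cardiac myosin, the motor protein of heart muscle, is the best known self antigen of autoimmune myocarditis in mice, and BALB/c is a strain in which that disease can be induced by immunization.

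The CDR3s that follow are the ones on which the comparison at the level of single receptors turns, and they are printed as in the deposited lists, which leave out the conserved first cysteine and last phenylalanine of the loop. The first 4 had the highest share of reads in the lower of the myosin nodes among CDR3s found in both myosin nodes and in no adjuvant node, and the last 4 led, by the lowest share among the adjuvant nodes, the CDR3s found in every adjuvant node and in no myosin node.
TRBV14 with TRBJ1-1, myosin nodes: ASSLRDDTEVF
TRBV19 with TRBJ1-2, myosin nodes: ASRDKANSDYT
TRBV19 with TRBJ1-4, myosin nodes: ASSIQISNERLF
TRBV19 with TRBJ1-3, myosin nodes: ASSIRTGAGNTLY
TRBV5 with TRBJ1-3, adjuvant nodes: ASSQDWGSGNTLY
TRBV5 with TRBJ1-3, adjuvant nodes: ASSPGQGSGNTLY
TRBV19 with TRBJ1-1, adjuvant nodes: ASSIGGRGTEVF
TRBV5 with TRBJ2-2, adjuvant nodes: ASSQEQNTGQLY
The TRBV segment named is the one with the largest share of the reads of that CDR3. It carried all of them for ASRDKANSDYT, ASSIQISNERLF, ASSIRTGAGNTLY, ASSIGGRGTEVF and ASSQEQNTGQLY, 99.9% for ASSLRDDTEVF, 77.2% for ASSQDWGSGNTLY and 33.1% for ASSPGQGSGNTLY, which was listed with 7 combinations of segments.

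The 2 myosin libraries held 8658001 and 7534295 reads, and the 4 adjuvant libraries held 7712663, 8840487, 8165673 and 8409104 reads. Every value was a read count, and the lowest count listed was 2. Molecular identifiers are not mentioned in the labels, so counts include amplification, and intervals and floors cover counting error only. Adjuvant nodes 1 and 3 stood apart from the other 4 libraries. They listed 53871 and 45229 distinct CDR3s, against 97629 and 91621 in the myosin nodes and 88872 and 93022 in adjuvant nodes 2 and 4. All 6 libraries were sorted to the same number of cells, and the depth of adjuvant nodes 1 and 3 lay within the range of the others. Results that rest on these libraries are also given with adjuvant nodes 2 and 4 only, a choice made after the values were seen. Only TCRβ transcripts were amplified, so the CD4+ identity of the cells cannot be checked against marker genes. T cells with TRBV26, TRBV12-1, TRBV12-2, TRBV16 or TRBV15 are deleted in BALB/c mice by superantigens of endogenous mammary tumor viruses. These segments together held 1.88 ± 0.0850% of reads in myosin nodes (SD, n = 2) and 1.84 ± 0.206% in adjuvant nodes (SD, n = 4). No other strain was at hand as a reference, and the primers differ between segments, so these shares do not test the strain label.

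No TRBV segment passed the test between myosin and adjuvant nodes. TRBV19, known as Vβ6, was the most used segment in both groups. It held 24.4 and 23.1% of reads in myosin nodes, against 21.2, 23.4, 21.1 and 21.9% in adjuvant nodes. Myosin node 1 was the highest of the 6, but adjuvant node 2 lay above myosin node 2, so the groups overlapped. The log2 fold change of myosin over adjuvant was 0.12 with a standard error of 0.05 (edgeR quasi-likelihood test, Benjamini-Hochberg adjusted p = 0.477). With adjuvant nodes 2 and 4 only the fold change was 0.07. The other nodes of the series held TRBV19 at 23.3 to 25.3% after heart extract, 23.3 to 24.5% after infarction and 22.3 to 24.8% after sham surgery.

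TRBV5, known as Vβ1, held 19.97 and 20.11% of reads in myosin nodes, against 21.6, 21.3, 21.3 and 21.7% in adjuvant nodes. Both myosin nodes lay below every adjuvant node, and the log2 fold change was −0.10 with a standard error of 0.04 (edgeR quasi-likelihood test, adjusted p = 0.477). TRBV5 was the only 1 of the 22 segments tested whose groups did not overlap, beside 0% of segments called by edgeR. Before adjustment 2 segments, TRBV19 and TRBV5, had an edgeR p under 0.05, and with DESeq2 0 segments passed after adjustment. In the heart extract nodes TRBV5 held 17.8 to 19.99% of reads, and in the mediastinal nodes 19.0 to 20.3% after infarction and 19.0 to 20.4% after sham surgery, so the adjuvant nodes were above all of these libraries as well.

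**Figure D1:**
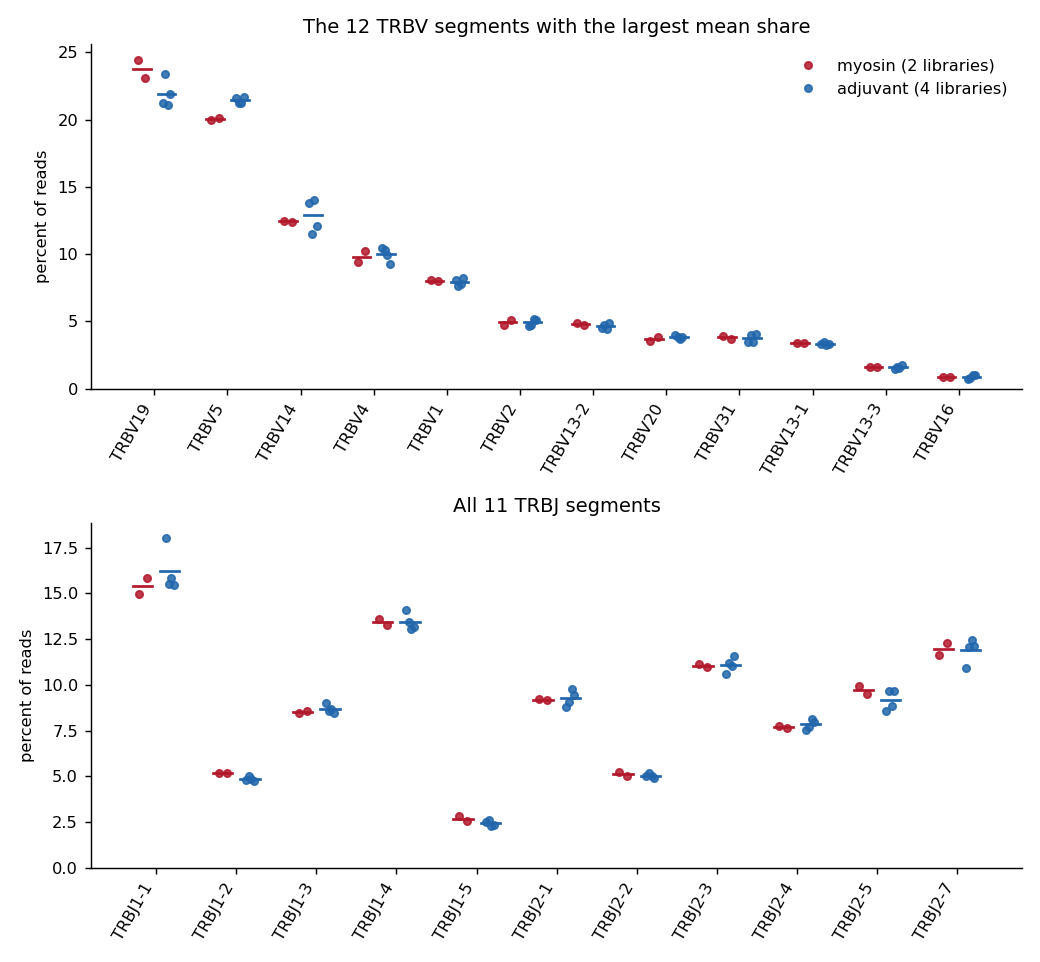
Percent of reads of the 12 TRBV segments with the largest mean share (top) and of the 11 TRBJ segments (bottom), with myosin libraries in red on the left and adjuvant libraries in blue on the right of each position. Points are libraries and bars are group means. Both TRBV5 points of the myosin nodes, at 19.97 and 20.11%, lie below the lowest adjuvant point at 21.3%, and TRBJ1-1 of adjuvant node 1 at 18.1% lies above all others.

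The remaining common segments overlapped between the groups. TRBV14, known as Vβ13, held 12.5 and 12.4% of reads in myosin nodes and 13.8, 11.5, 14.0 and 12.1% in adjuvant nodes, where the 2 highest values were those of adjuvant nodes 1 and 3. TRBV4 ranged from 9.39 to 10.2% in myosin nodes and from 9.23 to 10.4% in adjuvant nodes. TRBV1 followed with 8.05 and 8.02% in myosin nodes, inside the adjuvant range of 7.61 to 8.21%. TRBV2 held 4.72 and 5.14% in myosin nodes, inside the adjuvant range of 4.68 to 5.20%. TRBV13-2, known as Vβ8.2, held 4.85 and 4.76% in myosin nodes and 4.44 to 4.85% in adjuvant nodes, with a log2 fold change of 0.05 (edgeR adjusted p = 0.974). TRBV20 held 3.55 and 3.85% in myosin nodes and 3.72 to 3.98% in adjuvant nodes, with a log2 fold change of −0.06 (edgeR adjusted p = 0.974).

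Summed over families, the TRBV13 segments held 9.82 ± 0.0742% of reads in myosin nodes (SD, n = 2) and 9.57 ± 0.370% in adjuvant nodes (SD, n = 4; exact two-sided permutation p = 0.667, adjusted p = 0.933 over 4 lists). The TRBV12 segments held 0.0895 ± 0.0123% in myosin nodes (SD, n = 2) and 0.0959 ± 0.0263% in adjuvant nodes (SD, n = 4; exact two-sided permutation p = 0.933). The superantigen-deleted segments differed by 0.0351 percentage points (exact two-sided permutation p = 0.933). Rearrangements to the upstream joining cluster, TRBJ1, made up 45.2 ± 0.281% of reads in myosin nodes (SD, n = 2) and 45.7 ± 1.94% in adjuvant nodes (SD, n = 4; exact two-sided permutation p = 0.933). With 2 libraries against 4 there are 15 assignments of the labels, the smallest two-sided p is 0.133, and no exact permutation test of this design can reach 0.05.

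The edgeR test called 0 of the 11 TRBJ segments (0%), the count was also 0 before adjustment at p under 0.05, and it was 0 with DESeq2. TRBJ1-2 held 5.17 and 5.17% of reads in myosin nodes, against 4.81, 4.998, 4.85 and 4.77% in adjuvant nodes. Both myosin nodes were above every adjuvant node, the only TRBJ segment for which the groups did not overlap, and the log2 fold change was 0.09 (edgeR adjusted p = 0.551). TRBJ1-5 held 2.81 and 2.55% in myosin nodes, against 2.53, 2.595, 2.29 and 2.34% in adjuvant nodes, with a log2 fold change of 0.14. TRBJ2-5 held 9.92 and 9.50% in myosin nodes, against 8.56, 9.64, 8.85 and 9.64% in adjuvant nodes, with a log2 fold change of 0.08. In TRBJ1-5 and TRBJ2-5 alike, myosin node 1 was the highest of the 6 libraries and myosin node 2 lay within the adjuvant range.

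The most used joining segment was TRBJ1-1, with 15.0 and 15.9% of reads in myosin nodes and 18.1, 15.5, 15.8 and 15.5% in adjuvant nodes. Adjuvant node 1 was the highest of the 6 and the other 3 adjuvant nodes lay between the myosin nodes. TRBJ1-4 held 13.6 and 13.3% in myosin nodes and 13.1 to 14.1% in adjuvant nodes, and TRBJ2-7 held 11.6 and 12.3% in myosin nodes and 10.9 to 12.5% in adjuvant nodes. TRBJ2-3 held 11.1 and 10.96%, TRBJ2-1 9.24 and 9.16%, TRBJ1-3 8.47 and 8.56%, TRBJ2-4 7.78 and 7.65%, and TRBJ2-2 5.24 and 5.02% of reads in myosin nodes. For each of these 5 segments the myosin values overlapped the adjuvant range.

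Among 242 combinations of a TRBV and a TRBJ segment, edgeR called 0 (0%), with 8 under 0.05 before adjustment, and DESeq2 also called 0. TRBV19 with TRBJ1-1 was the largest combination, with 4.10 and 4.02% of reads in myosin nodes and 4.09, 3.77, 3.40 and 3.603% in adjuvant nodes, and the groups overlapped. The smallest p belonged to TRBV5 with TRBJ2-4, at 1.43 and 1.36% of reads in myosin nodes against 1.44, 1.53, 1.72 and 1.67% in adjuvant nodes (log2 fold change −0.19, edgeR adjusted p = 0.980). Both myosin values lay below all 4 adjuvant values, of which that of adjuvant node 1 was close to myosin node 1. TRBV13-2 with TRBJ1-5 ran the other way, with 0.155 and 0.141% in myosin nodes against 0.0935, 0.121, 0.0847 and 0.111% in adjuvant nodes (log2 fold change 0.53, edgeR adjusted p = 0.980). TRBV2 with TRBJ2-2 held 0.198 and 0.224% in myosin nodes against 0.166, 0.180, 0.168 and 0.194% in adjuvant nodes (log2 fold change 0.25). In these 2 combinations both myosin nodes were above every adjuvant node, by little in the second. They and TRBV5 with TRBJ2-4 were taken by smallest p. How many of all 242 combinations did not overlap was not counted, so their separation is a description only. TRBV23 with TRBJ2-3 had the second smallest p and rested on 34 reads in myosin node 2 and 2 reads in adjuvant node 2.

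The commonest CDR3 length overlapped between the groups. CDR3s of 12 residues, the commonest length as listed, made up 30.2 and 30.2% of reads in myosin nodes and 29.6 to 30.4% in adjuvant nodes. The mean length over reads was 12.1 ± 0.0352 residues in myosin nodes (SD, n = 2) and 12.1 ± 0.0230 residues in adjuvant nodes (SD, n = 4; exact two-sided permutation p = 0.8). Of 24 lengths tested edgeR called 0 (0%), with 0 under 0.05 before adjustment, while DESeq2 called 1 (4.17%), the rare length of 20 residues.

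In the central part of the loop, taken as the CDR3 without its first 3 and last 4 listed residues, isoleucine had the smallest p of the 20 amino acids. Isoleucine made up 2.80 and 2.57% of central residues over reads in myosin nodes, against 2.46, 2.64, 2.41 and 2.42% in adjuvant nodes. Myosin node 1 was the highest of the 6 and adjuvant node 2 lay above myosin node 2. The log2 fold change was 0.11 with a standard error of 0.04 (edgeR adjusted p = 0.104), and DESeq2 gave an adjusted p of 0.0474. That was 0 of 20 residues called by edgeR (0%), with 1 under 0.05 before adjustment, and 1 called by DESeq2 (5%). An edgeR call appeared without adjuvant node 2, where the log2 fold change was 0.14 (edgeR adjusted p = 0.0042). Without myosin node 2, which leaves 1 myosin library, it was 0.17. These 2 libraries are the ones whose order ran against the difference. With distinct CDR3s in place of reads, 0 residues had an edgeR p under 0.05 before adjustment. Over all leave-one-out fits the log2 fold change of isoleucine ranged from 0.049 to 0.17. With adjuvant nodes 2 and 4 only it was 0.09 and was not called.

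Residue 4 of the listed string, directly after the alanine and serines that open most CDR3s, was examined on its own. CDR3s with isoleucine there held 9.05 and 8.07% of reads in myosin nodes, against 7.98, 8.65, 7.27 and 7.53% in adjuvant nodes. Between 95.7 and 97.7% of these reads used TRBV19 in each of the 6 libraries. Within TRBV19 the share with isoleucine at that place was 36.2 and 33.8% in myosin nodes and 36.5, 36.1, 33.0 and 33.4% in adjuvant nodes, and the groups overlapped. Among the central residues after the fourth, isoleucine made up 1.28 and 1.21% in myosin nodes and 1.12, 1.17, 1.21 and 1.17% in adjuvant nodes. The TRBV19 share ranked highest in the same libraries as the isoleucine share, myosin node 1 and adjuvant node 2, and its part in the isoleucine result was not tested.

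The groups did not overlap for 2 of the 20 residues, glutamine and proline. Glutamine made up 9.74 and 9.84% of central residues in myosin nodes, below 9.97, 9.93, 10.04 and 10.11% in adjuvant nodes (edgeR adjusted p = 0.981). Proline made up 3.99 and 4.01% in myosin nodes, above 3.98, 3.799, 3.96 and 3.95% in adjuvant nodes (edgeR adjusted p = 0.981).

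Short motifs of 3 residues in the CDR3 centre were tested in the same way. Of 6690 motifs edgeR called 0 (0%), with 349 under 0.05 before adjustment, while DESeq2 called 180 (2.69%), 49 higher and 131 lower in myosin nodes. Of the 4 motifs with the smallest p, IFW, MPD and IHI were carried by few CDR3s each and HRN by more. The motif IFW had 1182 and 460 reads in myosin nodes, against 2, 0, 0 and 0 in adjuvant nodes, and came with 30.2% of its reads from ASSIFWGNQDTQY. The motif MPD had 887 and 894 reads in myosin nodes, against 0, 0, 4 and 0 in adjuvant nodes, led by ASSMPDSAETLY. In the opposite direction IHI had 0 and 0 reads in myosin nodes, against 444, 424, 613 and 198 in adjuvant nodes, with 63.8% of its reads from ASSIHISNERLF. The motif HRN was found in every library, with 1266 and 949 reads in myosin nodes, against 3138, 3439, 5382 and 3692 in adjuvant nodes. It was carried by 22 and 20 CDR3s in myosin nodes, and by 22, 33, 20 and 33 in adjuvant nodes. The edgeR adjusted p was 0.914 for all 4. Outside these 6 libraries IFW and MPD were also read in infarct and sham nodes, MPD in all 3 heart extract nodes and IFW in 1 of them, and IHI in every infarct and sham node but in none of the 3 heart extract nodes.

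Both myosin nodes listed many distinct CDR3s and few large ones. At an equal depth of 7534295 drawn reads, 97320 and 91621 distinct CDR3s were found in myosin nodes, against 53861, 88482, 45134 and 92872 in adjuvant nodes. Adjuvant nodes 1 and 3 were far below the rest, and adjuvant node 4 lay above myosin node 2. The means were 94471 ± 4030 in myosin nodes (SD, n = 2) and 70087 ± 24107 in adjuvant nodes (SD, n = 4; exact two-sided permutation p = 0.267, adjusted p = 0.333 over 5 diversity measures). With adjuvant nodes 2 and 4 only the difference was 3794 CDR3s (exact two-sided permutation p = 0.667).

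The 100 most abundant CDR3s of a library held 2.59 and 2.54% of its reads in myosin nodes, against 5.51, 3.09, 5.07 and 2.92% in adjuvant nodes. Both myosin nodes were below every adjuvant node, at 2.56 ± 0.0355% (SD, n = 2) against 4.15 ± 1.33% (SD, n = 4; exact two-sided permutation p = 0.133, the smallest this design allows, adjusted p = 0.333). With adjuvant nodes 2 and 4 only the difference was −0.447 percentage points, against −1.59 with all 4. CDR3s above 0.01% of reads numbered 663 and 672 in myosin nodes, against 2034, 808, 2435 and 690 in adjuvant nodes. Again both myosin nodes were lowest, adjuvant node 4 was close to them, and adjuvant nodes 1 and 3 were far above all others (exact two-sided permutation p = 0.133). The myosin mean was lower by 81.5 CDR3s with adjuvant nodes 2 and 4 only.

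Sorted by size, CDR3s of 0.01 to 0.1% of reads each held 9.78 and 9.90% of all reads in myosin nodes, against 35.7, 12.2, 43.1 and 10.4% in adjuvant nodes. CDR3s under 0.001% each held 20.2 and 19.4% in myosin nodes, against 6.63, 17.1, 3.90 and 19.5% in adjuvant nodes. By both measures the myosin nodes stood next to adjuvant nodes 2 and 4. The heart extract nodes showed the same kind of spread within 1 group, with 52706, 87506 and 38437 distinct CDR3s listed. Evenness, the normalised Shannon entropy, was 0.924 ± 0.00215 in myosin nodes (SD, n = 2) and 0.904 ± 0.0196 in adjuvant nodes (SD, n = 4; exact two-sided permutation p = 0.267). The difference was 0.0206 with all 4 adjuvant nodes and 0.0037 with adjuvant nodes 2 and 4 only. Fewer T cell clones sampled and less usable RNA per library cannot be told apart in these counts.

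**Figure D2:**
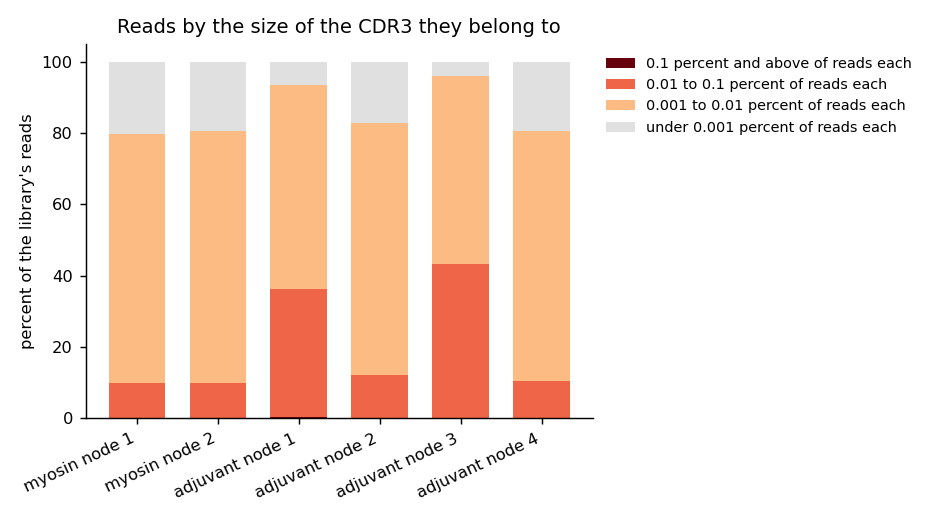
Percent of each library's reads that belong to CDR3s of 4 size classes, for the 2 myosin nodes (left) and the 4 adjuvant nodes (right). The class of 0.01 to 0.1% of reads holds 9.78 and 9.90% in the myosin nodes and 12.2 and 10.4% in adjuvant nodes 2 and 4, against 35.7 and 43.1% in adjuvant nodes 1 and 3.

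The largest CDR3 of either myosin node was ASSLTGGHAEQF, a TRBV14 receptor with 10992 reads in myosin node 1, or 0.127% (Wilson 95% interval 0.125 to 0.129%). It was not listed in myosin node 2 and had 449 reads in adjuvant node 2. The next in that node were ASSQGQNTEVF with 4459 reads, which was found in all 6 libraries, and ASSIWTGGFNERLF with 4063 reads, which was found in none of the other 5. In myosin node 2 the largest were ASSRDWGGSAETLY with 5021, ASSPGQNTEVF with 4207 and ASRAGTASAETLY with 3910 reads. Of these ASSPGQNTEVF was also abundant elsewhere, with 2170 reads in myosin node 1 and 1917, 1337, 1441 and 995 in adjuvant nodes. In adjuvant nodes 1 to 4 the leading CDR3s were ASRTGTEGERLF with 10271 reads, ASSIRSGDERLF with 7174, a TRBV14 receptor with 10189 and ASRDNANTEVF with 8906. The leading CDR3 thus differed in each of the 6 libraries, and the largest of each held between 0.0666 and 0.133% of its reads.

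TRBV14 was the most frequent segment among the large CDR3s of both myosin nodes and of adjuvant node 3, TRBV19 was that of adjuvant nodes 1 and 2, and the segments tied in adjuvant node 4. Of the 100 most abundant CDR3s of a library, 40 and 48 carried TRBV14 in myosin nodes, and 42, 28, 56 and 33 in adjuvant nodes. TRBV19 carried 30 and 25 of them in myosin nodes and 48, 42, 28 and 33 in adjuvant nodes, so it was less frequent there in both myosin nodes than in 3 of the 4 adjuvant nodes. TRBV5 carried 12 and 14 in myosin nodes and 2, 20, 8 and 22 in adjuvant nodes. Per distinct CDR3, TRBV14 had 164 and 161 reads in myosin nodes and 279, 172, 411 and 169 in adjuvant nodes. TRBV13-2 had 23.7 and 21.6 reads per CDR3 in myosin nodes and 45.4, 28.0, 62.5 and 24.7 in adjuvant nodes. In both segments adjuvant nodes 1 and 3 had the most reads per CDR3, and the primers differ between segments, so their levels are not compared with each other.

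At the level of single CDR3s, the myosin nodes were tested against the adjuvant nodes over 217909 sequences that had at least 20 reads in all and were listed in at least 2 of the 16 node libraries. With edgeR 0 passed the threshold of 0.05 (0%), and 20363 were under it before adjustment. On counts simulated with the spread of these libraries edgeR recovered none of the changed CDR3s, at any of the fold changes tried, so its count of 0 says nothing about whether single CDR3s differed. DESeq2 called 10263 (4.71%), 2882 higher and 7381 lower in myosin nodes, and gave no adjusted p for 107679. Of the CDR3s that DESeq2 called, 10252 were listed in only 1 of the groups and 7812 in only 1 of the 6 libraries. Those listed in both myosin nodes and in no adjuvant node numbered 430, and those listed in every adjuvant node and in no myosin node 33. The tools thus disagreed, and single CDR3s are described by their read counts.

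Of the CDR3s listed in both myosin nodes, 15344 in number, 4148 were listed in 0, 3957 in 1, 3561 in 2, 2446 in 3 and 1232 in 4 adjuvant nodes. The 4148 absent from the adjuvant lists held 4.66 and 4.86% of the reads of the myosin nodes. The 1232 found in all 6 libraries held 5.57 and 5.59% of reads in myosin nodes, and 6.97, 5.39, 8.29 and 5.98% in adjuvant nodes. In comparison 127464 CDR3s were listed in 1 myosin node and in no adjuvant node and held 53.2 and 51.9% of the myosin reads, so most reads of a myosin node carried a CDR3 that none of the other 5 libraries listed.

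**Figure D3:**
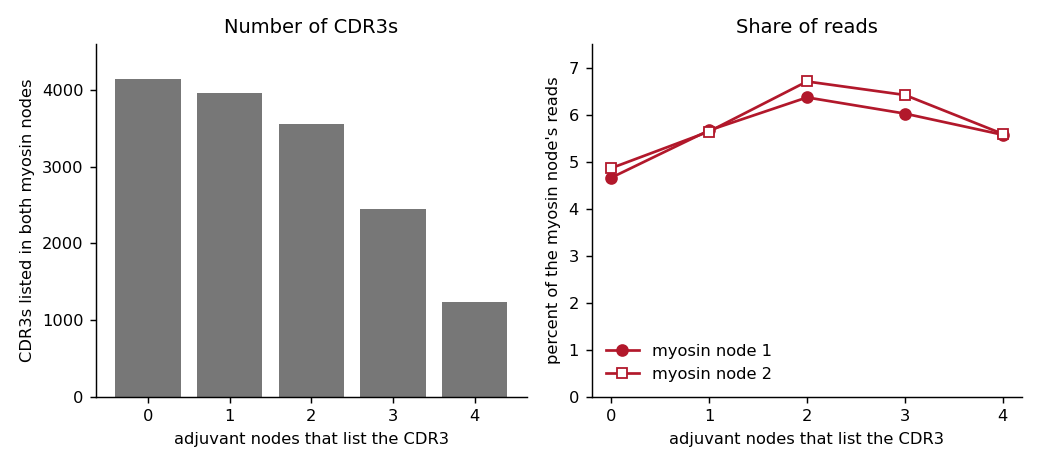
CDR3s listed in both myosin nodes, by the number of adjuvant nodes that also list them. The left panel gives the number of CDR3s, which is 4148 at 0 and 1232 at 4 adjuvant nodes, and the right panel gives their percent of reads in each myosin node, between 4.66 and 6.70%.

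The CDR3s of both myosin nodes and no adjuvant node were often read elsewhere. Of the 4148, 1372 (33.1%) were listed in a heart extract node, 2906 (70.1%) in an infarct node and 2678 (64.6%) in a sham node, where no antigen had been given, and 653 (15.7%) were in no other library. Of all CDR3s listed in any of the 6 nodes, 13.0% were listed in a heart extract node, 29.2% in an infarct node and 26.1% in a sham node. Of all CDR3s listed in both myosin nodes, the shares were higher than in the set, at 61.1, 89.0 and 85.7%. CDR3s listed in 2 libraries are more widely shared by construction, and those missing from the adjuvant lists less widely. These shares are therefore a description. The opposite set, found in every adjuvant node and in no myosin node, held 81 CDR3s. Of these 48 were in a heart extract node, 79 in an infarct node and 72 in a sham node. Membership required 4 libraries, among them the short lists of adjuvant nodes 1 and 3, where the myosin set required 2. The sizes 4148 and 81 are therefore not comparable, and 10451 CDR3s were in exactly 2 adjuvant nodes and no myosin node.

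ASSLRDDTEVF led the myosin set with 1004 and 779 reads in myosin nodes and none in adjuvant nodes, at least 302-fold higher against a floor of 3 reads in each adjuvant library. Elsewhere it had 176 reads in heart extract node 2. It also had 584 and 9 reads in infarct nodes 1 and 2, and 8 and 46 in sham nodes 1 and 3. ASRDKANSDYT had 857 and 778 reads in myosin nodes and none in adjuvant nodes, at least 278-fold higher, and elsewhere it had only 22 reads in sham node 3. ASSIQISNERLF had 733 and 1264 reads in myosin nodes and none in adjuvant nodes, at least 348-fold higher, and had the smallest p of all CDR3s (edgeR adjusted p = 0.480). DESeq2 gave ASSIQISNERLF an adjusted p of 1.02e-07. The CDR3 was picked by its absence from the adjuvant nodes, so these p-values are no separate support for it. It was also read in all 3 heart extract nodes, with 682, 374 and 536 reads, in all 3 infarct nodes, with 160, 855 and 1737 reads, and in 2 of 4 sham nodes, with 1584 and 815 reads. The node libraries that did not list it were the 4 adjuvant nodes and sham nodes 2 and 4.

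CDR3s that differ from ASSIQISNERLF by 1 residue were listed in every one of the 6 libraries. There were 24 and 24 of them in myosin nodes, and 9, 20, 11 and 20 in adjuvant nodes, from lists of 97629 and 91621 CDR3s in myosin nodes and of 53871, 88872, 45229 and 93022 in adjuvant nodes. The shortest lists, those of adjuvant nodes 1 and 3, held the fewest. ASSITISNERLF had 1029 and 2402 reads in myosin nodes, against 0, 626, 795 and 927 in adjuvant nodes. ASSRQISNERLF had 884 and 2018 reads in myosin nodes, against 400, 3511, 3311 and 1439 in adjuvant nodes, and the groups overlapped. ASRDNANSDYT, which differs from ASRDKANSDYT by 1 residue, had 266 and 369 reads in myosin nodes, against 604, 2, 816 and 165 in adjuvant nodes.

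Further CDR3s of the set were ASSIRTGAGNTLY with 668 and 661 reads, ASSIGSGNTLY with 626 and 1000, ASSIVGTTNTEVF with 584 and 565, and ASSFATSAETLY with 579 and 1246 in myosin nodes, each at least 196-fold higher than the floor of the adjuvant nodes. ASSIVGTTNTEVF reached 3343 reads in sham node 4, more than in either myosin node. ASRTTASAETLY had 571 and 516 reads, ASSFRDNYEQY had 571 and 685, and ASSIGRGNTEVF had 531 and 471 in myosin nodes, each at least 171-fold higher. Of these 3 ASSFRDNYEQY was also listed in an infarcted heart, with 8 reads. It had more reads in other nodes, with 795, 689 and 305 in infarct nodes and 66, 252, 647 and 0 in sham nodes. The fold values use the listed reads of the higher group, and for a CDR3 at 0 in every adjuvant node a fitted fold change is no measure of size. TRBV19 was the segment with the most reads in 9 of the 12 leading CDR3s of this set, and 7 of the 12 opened with ASSI. Over the whole set, with each CDR3 and segment combination counted once, TRBV19 made up 10.6%, against 12.1% in any of the 6 libraries. The 2 counts are unlike. Of the 100 most abundant CDR3s of a library, TRBV19 carried between 25 and 48.

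Several CDR3s with the smallest edgeR p were read in 1 myosin node only. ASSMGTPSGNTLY had 2911 and 0 reads and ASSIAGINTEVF had 2640 and 0 reads in myosin nodes 1 and 2, and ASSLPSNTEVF had 0 and 2017. None of the 3 was listed in an adjuvant node. A group mean that rests on 1 of 2 libraries has no replicate behind it.

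Among CDR3s of every adjuvant node and no myosin node, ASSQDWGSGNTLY was absent from both myosin nodes and had 1910, 472, 871 and 950 reads in adjuvant nodes, at least 350-fold lower in myosin nodes against the same floor. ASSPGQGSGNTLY was absent from myosin nodes and had 946, 1134, 329 and 276 reads in adjuvant nodes, at least 218-fold lower in myosin nodes. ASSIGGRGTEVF was absent from myosin nodes and had 3969, 268, 747 and 461 reads in adjuvant nodes, at least 464-fold lower in myosin nodes (DESeq2 adjusted p = 4.16e-06, edgeR adjusted p = 0.480). Most of its adjuvant reads came from adjuvant node 1. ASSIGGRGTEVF was picked by its absence from the myosin nodes, so these p-values are no separate support for it. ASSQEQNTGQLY had 233, 258, 624 and 327 reads and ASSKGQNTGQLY had 1118, 204, 305 and 326 reads in adjuvant nodes, with none in myosin nodes, at least 117-fold and 164-fold lower there. In this set TRBV5 was the segment with the most reads in 5 of the 8 CDR3s examined. Over the whole set, with each CDR3 and segment combination counted once, it made up 16.3%, against 14.6% in any of the 6 libraries. The 2 counts are unlike. Of the 100 most abundant CDR3s of a library, TRBV5 carried between 2 and 22.

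Abundant CDR3s found in all 6 libraries also varied within the groups. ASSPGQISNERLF had 809 and 3213 reads in myosin nodes, against 2426, 2233, 4727 and 3131 in adjuvant nodes. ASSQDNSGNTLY had 1346 and 3011 reads in myosin nodes, against 3480, 2398, 2415 and 2314 in adjuvant nodes. In both of these myosin node 1 was the lowest of the 6 libraries and myosin node 2 lay within the adjuvant range. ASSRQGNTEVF had 1914 and 1736 reads in myosin nodes, against 4211, 1317, 3021 and 2565 in adjuvant nodes. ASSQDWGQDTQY had 2758 and 1959 reads in myosin nodes, against 1701, 2171, 2467 and 2948 in adjuvant nodes, and the groups overlapped. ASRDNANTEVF had 137 and 165 reads in myosin nodes, against 2652, 693, 1247 and 8906 in adjuvant nodes, and its groups did not overlap. These CDR3s were taken by mean share over the 6 libraries, which for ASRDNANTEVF rested mostly on adjuvant node 4. How many of the 1232 CDR3s of all 6 libraries did not overlap was not counted. All 5 were listed with at least 5 combinations of segments.

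The overlap of the myosin nodes with each other was close to their overlap with adjuvant nodes 2 and 4. The Morisita-Horn index, which is 0 for repertoires without common CDR3s and 1 for equal shares, was 0.240 between the 2 myosin nodes, with 15316 shared CDR3s at equal depth. Between myosin and adjuvant nodes it was 0.216 and 0.225 with adjuvant node 2, and 0.225 and 0.237 with adjuvant node 4, for myosin nodes 1 and 2. With adjuvant nodes 1 and 3 it lay between 0.125 and 0.143. Among adjuvant nodes the mean was 0.141, with a range of 0.0990 to 0.218, and the highest value was that of adjuvant nodes 2 and 4, with 14181 shared CDR3s. The mean index within groups minus that between groups was −0.0248 (exact one-sided permutation p = 0.8, with 0.0667 the smallest this design allows). It was 0.00316 with adjuvant nodes 2 and 4 only (exact one-sided permutation p = 0.333).

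**Figure D4:**
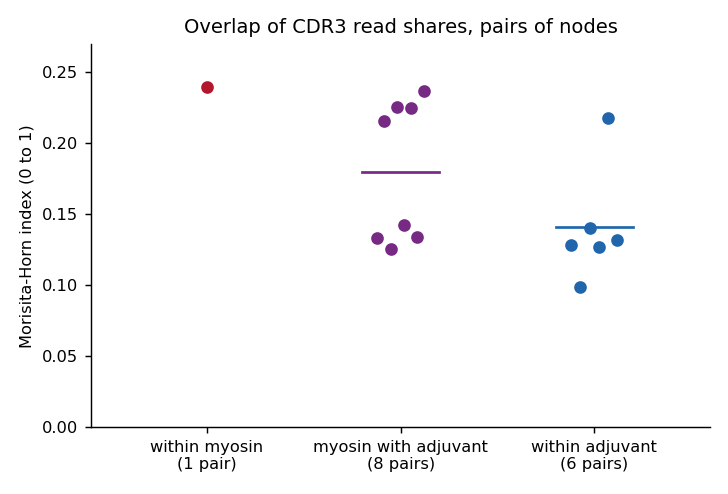
Morisita-Horn index (0 to 1) of CDR3 read shares at equal depth for the pair of myosin nodes (red, left), the 8 pairs of a myosin with an adjuvant node (purple, middle) and the 6 pairs of adjuvant nodes (blue, right). Each point is 1 pair and bars are means. The pairs that hold adjuvant node 1 or 3 lie at 0.0990 to 0.143 and all others at 0.216 to 0.240.

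The last comparison asked whether CDR3s of infarcted hearts were more frequent after immunization with myosin. CDR3s listed in any of the 3 infarcted hearts held 2.11 and 2.21% of reads in myosin nodes, against 2.16, 2.07, 2.28 and 2.16% in adjuvant nodes. The groups overlapped, at 2.16 ± 0.0729% in myosin nodes (SD, n = 2) and 2.17 ± 0.0856% in adjuvant nodes (SD, n = 4; exact two-sided permutation p = 1). Of distinct CDR3s, 0.958 and 1.03% were listed in a heart in myosin nodes, against 1.05, 0.998, 1.02 and 0.981% in adjuvant nodes (exact two-sided permutation p = 0.667). Of the 2898 CDR3s of heart 1, 200 and 213 were found in myosin nodes, against 110, 189, 100 and 197 in adjuvant nodes. Of the 4153 of heart 2, 364 and 374 were found in myosin nodes, against 226, 335, 171 and 323 in adjuvant nodes. Of the 4795 of heart 3, 389 and 375 were found in myosin nodes, against 235, 379, 198 and 407 in adjuvant nodes. Both myosin nodes exceeded every adjuvant node for hearts 1 and 2, while for heart 3 the groups overlapped and adjuvant node 4 was highest. The low counts were again those of adjuvant nodes 1 and 3, which listed the fewest CDR3s. These counts per heart came from the full lists, without drawing to an equal depth, and were not tested.

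Of the 4148 CDR3s of both myosin nodes and no adjuvant node, 54 (1.30%) were listed in a heart, 16 in heart 1, 23 in heart 2 and 17 in heart 3, where they held 2.73, 1.36 and 1.05% of reads. A heart listed 0.578% of the CDR3s of any of the 6 libraries, 2.97% of all CDR3s of both myosin nodes, and 2 of 81 (2.47%) of the CDR3s of every adjuvant node and no myosin node. Of the 6 with the highest share of a heart, 4 are described here after their values were seen. TRBV19 held the largest part of the reads of each, over the 6 nodes and the hearts together, where heart reads prevailed. Their segment in the myosin nodes alone was not examined, nor was the TRBV19 share of all 54. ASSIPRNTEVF had 190 and 218 reads in myosin nodes and 40772 reads (1.68%) in heart 1, and in the other nodes it was read in the 3 infarct nodes with 117, 72 and 3 reads and in sham node 3 with 129. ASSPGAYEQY had 347 and 57 reads in myosin nodes and 44403 reads (0.866%) in heart 3, and in the other nodes it had 23 reads in heart extract node 2, 20 and 51 in infarct nodes 2 and 3, and 7 in sham node 3. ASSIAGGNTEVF had 2 and 440 reads in myosin nodes and 27373 reads (0.622%) in heart 2, and was also read in every infarct node, with 220, 79 and 206 reads, and in 3 of 4 sham nodes, with 6, 100 and 89 reads. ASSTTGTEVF had 183 and 75 reads in myosin nodes and 14414 reads (0.328%) in heart 2, and was in no other node. Each of these 4 CDR3s was listed in 1 heart only, whereas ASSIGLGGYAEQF, another of the 6, had 12478 reads in heart 1 and 2 reads in heart 3. The heart libraries came from fewer sorted cells than the nodes.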

How the data were processed

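Per the labels' protocols, T cell receptor β transcripts of sorted CD4+ T cells were amplified by arm-PCR with primers for the variable segments, and libraries were pooled by mass and sequenced on an Illumina HiSeq. The deposited files give a raw read count for each combination of CDR3 amino acid sequence, TRBV and TRBJ segment, with 2 as the lowest count. The aligner, the error correction and the segment reference were not stated in the labels.

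Counts were summed per feature, and features with at least 20 reads in all and a read in at least 2 libraries were tested with edgeR 4.0.16 (R 4.3.3, quasi-likelihood, robust, legacy settings, library total as offset). The fit used all 16 node libraries in 5 groups, so that the spread was shared between groups, with Benjamini-Hochberg adjustment at 0.05. DESeq2 1.42.0 was an alternative, beside other normalizations, sample sets, filters and units and leaving out each library in turn. Diversity, overlap and the shares of a node's reads and distinct CDR3s listed in a heart were computed on 7534295 reads drawn from each library. They were tested by exact permutation. Size classes, sets by presence and the counts and read shares of each heart used the full lists and were not tested. Each fit was tested on simulated counts, in which the test of single CDR3s recovered none of the changed ones.

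Named were the 8 largest TRBV segments and the 4 of smallest p, every TRBJ segment, up to 4 other features of a kind by smallest p, and CDR3s by smallest p, by presence in the groups and by abundance. Of these CDR3s only some are described, and none of 15 or more residues is spelled out. The commonest length and the largest combination of segments were added after their values were seen. The members, lists and named sets were chosen with earlier results of these data known. All 33 segments matched RefSeq symbols, whose synonyms gave the Vβ names. Counts of any 2 libraries differed beyond sampling noise, so none was a copy of another, and each was treated as 1 sample. Separate amplifications of the same cells could differ as well, so this check cannot show that the samples were independent.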

Additional observations from a re-analysis of the deposited data

Results flagged for a closer look

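In 5 of 41 comparisons of the 4 adjuvant nodes, 1 library lay far from the other 3 by Dixon's criterion for 4 values. Chance gives this in about 1 of 20 groups, a rate that does not apply where 3 of the 4 values are 0. TRBJ1-1 held 18.05% of reads in adjuvant node 1, against 15.48 to 15.84% in the other 3. Proline made up 3.799% of central residues in adjuvant node 2, against 3.953 to 3.981% in the other 3. The remaining 3 were rare features listed in 1 adjuvant node and at 0 in the others. Such features are flagged whatever the size of the single value, so 5 of 41 does not measure an excess over chance. CDR3s of 20 residues held 0.003246% and CDR3s of 22 residues 0.001332% of reads in adjuvant node 4, and TRBV23 with TRBJ2-3 held 2.262e-05% of reads in adjuvant node 2. The myosin group has 2 libraries and was not examined in this way.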

How the results depend on the processing

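The counts of features called by edgeR stayed at 0 under TMM factors, other edgeR settings, the 6 or 9 axillary libraries alone, distinct CDR3s in place of reads, the filters on reads and the leave-one-out fits, except for central residues, where isoleucine alone was called in 2 leave-one-out fits (0 to 1 calls over them). DESeq2 called 10263 CDR3s, 180 motifs, 1 length and 1 residue. The cause was not tested. Same-numbered nodes correlated at −0.02 and 0.05 over 316 CDR3s. With 2 myosin libraries this check cannot tell whether replicate numbers pair the libraries. Every count stayed at 0 with replicate numbers as a block. The block turned the log2 fold changes of TRBJ1-4 (−0.0378), TRBJ2-1 (0.0335), TRBJ2-3 (0.0207) and TRBJ2-4 (0.0124). With adjuvant nodes 2 and 4 only, chosen after seeing the data, the differences that turned were TRBV14 (0.0729), TRBV4 (0.0050), TRBJ2-7 (−0.0173), the TRBJ1 cluster (0.529), the TRBV13 family (−0.0655), the superantigen-deleted segments (−0.0265), reads (0.0460) and distinct CDR3s (0.0040) shared with hearts, and the overlap within minus between groups (0.0032). TMM turned TRBV1 (−0.0084), TRBV2 (−0.0256), TRBJ1-4 (−0.0202) and TRBJ2-7 (−0.0134), DESeq2 turned TRBJ1-4 (−0.0237) and TRBJ2-7 (−0.0156), and edgeR without legacy settings turned TRBV2 (−0.0013). Distinct CDR3s in place of reads turned TRBV1 (−0.0397), TRBV2 (−0.120), TRBJ1-4 (−0.0193), TRBJ2-2 (−0.0032) and proline (−0.0209), and entries of at least 10 reads turned the TRBV13 family (−0.139). None of these had passed a test.

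Leaving out 1 library at a time, the log2 fold change ranged from −0.0878 to 0.0333 for TRBV4, −0.0585 to 0.0619 for TRBV2, −0.0167 to 0.0249 for TRBJ1-4, −0.0367 to 0.0131 for TRBJ2-1, −0.0062 to 0.0560 for TRBJ2-2, −0.0277 to 0.0154 for TRBJ2-3 and −0.0333 to 0.0453 for TRBJ2-7. It ranged from −2.31 to 7.24 for TRBV23 with TRBJ2-3, 0 to 14.5 for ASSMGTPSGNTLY, 0 to 14.1 for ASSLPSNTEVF, 0 to 7.85 for length 2, −9.51 to 0 for length 20 and −0.0398 to 2.19 for length 5. Differences ranged from −0.0294 to 0.0203 residues in mean length, and in percentage points from −0.900 to 0.526 for the TRBJ1 cluster, −0.0152 to 0.0057 for the TRBV12 family, −0.0509 to 0.0999 for the superantigen-deleted segments, −0.0584 to 0.0448 for reads and −0.0531 to 0.0185 for distinct CDR3s shared with hearts. A lone myosin library is assumed to vary like the other groups. With 2 myosin libraries exact permutation tests cannot pass 0.05, and a CDR3 missing from a library of this depth may still be carried by cells that were not sampled.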

Other observations

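The share of each heart's reads that belonged to CDR3s also listed in a node was in no comparison. For heart 1 it was 27.2 and 20.2% in myosin nodes, against 6.69, 18.7, 7.61 and 21.1% in adjuvant nodes. For heart 2 it was 25.5 and 26.0% in myosin nodes, against 16.8, 24.8, 15.7 and 24.3% in adjuvant nodes, and for heart 3 it was 28.5 and 33.5% in myosin nodes, against 15.3, 32.5, 10.6 and 31.3% in adjuvant nodes. For hearts 1 and 3 the groups overlapped. The lowest values for each heart were those of adjuvant nodes 1 and 3, which listed the fewest CDR3s, and the CDR3 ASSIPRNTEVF alone, listed in both myosin nodes and in no adjuvant node, held 1.68% of the reads of heart 1.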
